A study of Mus musculus with 8 samples.

Results

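The Ugt2 family of UDP-glucuronosyltransferases was examined in the liver of mice treated with isoginkgetin (ISOGK), a plant biflavonoid, or with vehicle. Its members here were the rows of the count table with the symbols Ugt2b1, Ugt2b5, Ugt2b34, Ugt2b35, Ugt2b36, Ugt2b37, Ugt2b38 and Ugt2a3, and all 8 were found among 16540 genes. RNA sequencing was done on 8 livers from male mice, 4 per group, with 1 library per mouse. Every mouse in both groups carried the Apoe-/- genotype, which raises plasma cholesterol, and ate a Western diet, so no mouse with intact Apoe and no other diet enters the comparison. ISOGK was injected intraperitoneally at 20 mg/kg/day for 8 weeks, and the control group received vehicle. The columns of the count table taken as vehicle are named DMSO. The labels give neither the age nor the strain of the mice.

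Apoe was counted at 3252 to 4963 reads per library in vehicle mice and at 3598 to 6489 in ISOGK mice. Without a mouse with intact Apoe to compare, these counts cannot show the genotype, which rests on the labels. Library totals lay between 19605286 and 24461854 counts under vehicle and between 17457106 and 21626399 under ISOGK, and they overlapped (two-sided exact permutation test of log2 totals, p = 0.200, smallest possible 0.0286). All 7 hepatocyte markers were detected in every library, and Alb, the albumin gene and the most abundant of them, had a mean of 123533 CPM under vehicle and 125411 under ISOGK. CPM here are read counts relative to the library total after TMM scaling, which corrects for differences in library composition.

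Vehicle replicate 4 stood apart by its skeletal muscle markers, all 10 of which were detected there, with a summed level of 82.4 CPM led by Myh4 at 20.1 CPM. The other vehicle libraries had between 0 and 0.623 CPM in sum and the ISOGK libraries between 0.226 and 0.589, and Acta1, the gene of skeletal muscle actin, was at 0 in all 7. Ugt2 results that change without this mouse are given with and without it. ISOGK replicate 4 was the library least like the others of its group, with a chi-square per gene of 81.0 to 93.4 against them, where the other ISOGK pairs had 30.9 to 63.0 and the vehicle pairs 17.1 to 31.5. Without it 4 Ugt2 members were still higher and 0 lower in edgeR, where 392 of all 12457 genes tested were higher and 287 lower. The 4 include Ugt2b37, whose call is only a description, for a reason given below.

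UGT2 enzymes sit in the membrane of the endoplasmic reticulum and transfer glucuronic acid from UDP-glucuronic acid to steroids, bile acids, phenols and many drugs. The products dissolve better in water and leave the liver through bile or blood. Hepatocytes are a main site of these enzymes, and their genes are known to respond to nuclear receptors and to liver-enriched factors such as HNF1 alpha.

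The 8 genes form a single cluster at chr5:86889767-87424203 (GRCm38, the build of the labels' mm10), with 534 kb between its outer ends. GENCODE M21 places 26 genes in it, of which the 8 members are the only protein-coding ones and 15 are pseudogenes. In order along the chromosome they are Ugt2b34, Ugt2b1, Ugt2b35, Ugt2b36, Ugt2b5, Ugt2b37, Ugt2a3 and Ugt2b38, with Ugt2b35 alone on the plus strand. Each main transcript has 6 exons and a coding sequence of between 1587 and 1602 bases.

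Ugt2b5, Ugt2b37 and Ugt2b38 are close copies of one another. The coding sequences of Ugt2b5 and Ugt2b38 are 97% identical, those of Ugt2b5 and Ugt2b37 94.7%, and those of Ugt2b37 and Ugt2b38 94.1%. Ugt2b36 and Ugt2b35 come next, at 88.6% and 87.7% identity to Ugt2b5, whereas Ugt2a3 reaches no more than 68.8% with any member. Of all stretches of 50 bases in the Ugt2b5 transcript, 41.7% also occur unchanged in another member, and the shares are 37.4% for Ugt2b38 and 18.3% for Ugt2b37. A read that lies wholly in shared sequence cannot be assigned to 1 gene. The separate values of the 3 copies are therefore uncertain where the counting split such reads. Reads longer than 50 bases can reach bases that differ, so the shares given here are not shares of reads. The share was 0 for Ugt2b35 and Ugt2b1, 0.326% for Ugt2b36, 2.07% for Ugt2b34 and 3% for Ugt2a3.

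The promoters are shown for the 3 close copies and Ugt2b35, which each passed the test described below, and for Ugt2b36, which has a similar promoter and did not pass. RefSeq (GRCm38.p6) gave a promoter window of 300 bases for all 8 members, 250 before and 50 after the start, and the 120 bases just before the annotated start are printed in the direction of transcription. Capitals mark the letters GTT and TTAAC when 5 bases separate them, and the letters AGGTCA.
Ugt2b5: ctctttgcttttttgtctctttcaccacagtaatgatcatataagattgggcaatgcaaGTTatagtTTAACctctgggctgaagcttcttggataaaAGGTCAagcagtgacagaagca
Ugt2b37: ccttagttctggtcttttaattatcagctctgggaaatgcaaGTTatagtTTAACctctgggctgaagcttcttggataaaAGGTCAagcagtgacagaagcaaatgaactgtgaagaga
Ugt2b38: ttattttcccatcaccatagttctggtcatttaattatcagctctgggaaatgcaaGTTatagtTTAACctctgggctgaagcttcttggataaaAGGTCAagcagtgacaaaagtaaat
Ugt2b36: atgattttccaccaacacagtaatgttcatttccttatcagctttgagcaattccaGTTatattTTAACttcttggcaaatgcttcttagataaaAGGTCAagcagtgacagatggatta
Ugt2b35: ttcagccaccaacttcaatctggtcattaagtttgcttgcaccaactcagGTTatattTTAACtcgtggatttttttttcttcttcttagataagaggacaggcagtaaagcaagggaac
These stretches lie at chr5:87140341-87140460, chr5:87254789-87254908, chr5:87424204-87424323 and chr5:87092556-87092675 on the minus strand, and at chr5:87000740-87000859 on the plus strand.

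AGGTCA, to which many nuclear receptors bind, was found on either strand in the windows of 5 of the 8 members and in 16.3% of all 32851 promoter windows. GTT and TTAAC with 5 bases between them are letters of the palindrome known for HNF1, can overlap its shorter motif GTTAAT, and were added after the promoters had been seen. This pattern occurred in 7 of the 8 members, all but Ugt2a3, and in 0.575% of all windows. In Ugt2b5, Ugt2b37, Ugt2b38 and Ugt2b36 the AGGTCA began 39 bases after the GTT, and no other promoter window held both at that distance. The distance was itself read from these promoters of related genes, so its absence elsewhere is a description and no test. Ugt2b35 had its AGGTCA farther away, 215 bases before the start. Among the 5 other motifs searched on both strands, GTTAAT of HNF1 occurred in Ugt2a3 only (7.1% of all windows). GCGTG of the aryl hydrocarbon receptor (32.4% of all windows), TGACNNNGC of the antioxidant response element (12.4%), TATAAA (13.6%) and TTGCGCAA of C/EBP (0.183%) had no match in any member. These are matches of letters only, and binding was not measured.

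All 8 members passed the filter on low counts, 7 of them in every library and Ugt2b37 through the ISOGK libraries alone (0 of 4 vehicle and 4 of 4 ISOGK libraries at the minimum of 0.471 CPM). A gene let in by 1 group had to differ, so the call of Ugt2b37 and the counts that include it are a description. Under ISOGK 4 of the 8 were higher at an adjusted p under 0.05 in edgeR's quasi-likelihood test, against 4.11% of the 12307 genes tested, and they were Ugt2b5, Ugt2b37, Ugt2b38 and Ugt2b35. No member was lower in edgeR, DESeq2 or limma-voom (0 of 8, against 3.44% of all genes in edgeR), so that 4 of 8 were called in either direction, against 7.55%. At an unadjusted p under 0.05, 1 member was lower, Ugt2a3, in each of these tools (11.6% of all genes in edgeR), and the same 4 were higher (12.5%). Ugt2a3 no longer reached this level when vehicle replicate 1 or 2 or ISOGK replicate 1 or 4 was left out, or when mice were blocked by number, which left 0 members lower. When an absolute log2 fold change over 1 was also asked for, 1 of 8 was higher, Ugt2b37, against 0.999% of all genes, and 0 were lower, against 0.626%. Ugt2b37 is the gene let in by the ISOGK libraries, so nothing is read from that count. Without vehicle replicate 4, 3 of 8 members were higher, against 2.40% of 12437 genes, and 0 were lower, against 2.02%, with Ugt2b5 no longer called. The median log2 fold change was 0.45 over the 8 members (0.42 without vehicle replicate 4) and 0.00 over all genes tested.

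**Figure D1:**
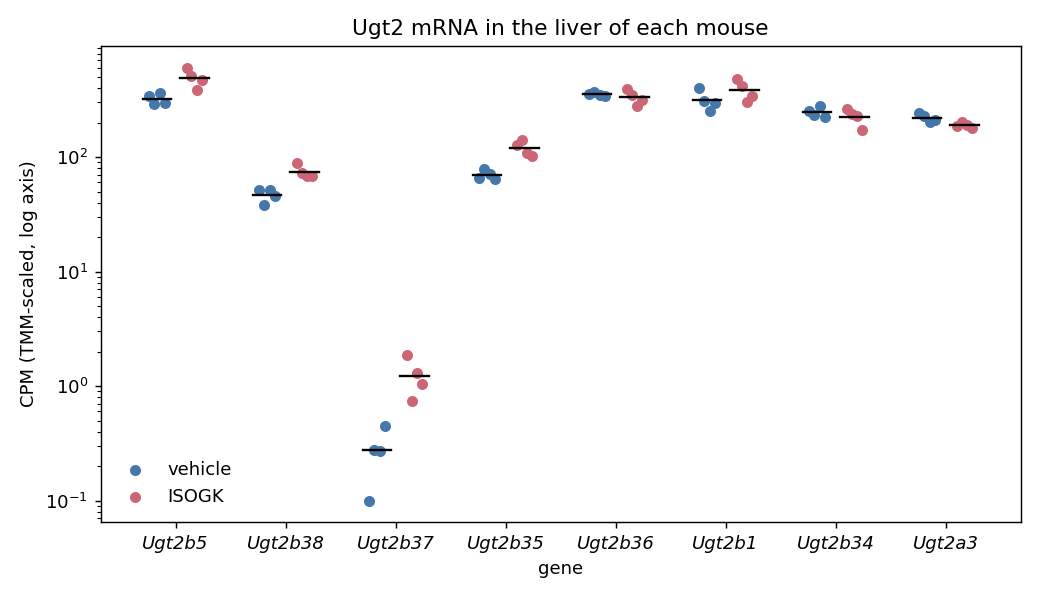
CPM (log axis) of each Ugt2 gene in the liver of every mouse, with vehicle in blue, ISOGK in red and group means as black lines (4 mice per group). All ISOGK points lie above all vehicle points for Ugt2b5, Ugt2b38, Ugt2b37 and Ugt2b35, and below them for Ugt2a3.

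Ugt2b5 was measured at 344, 289, 361 and 299.7 CPM in vehicle mice 1 to 4 and at 605, 513, 385 and 469 CPM in ISOGK mice 1 to 4. The lowest ISOGK mouse, replicate 3, was above the highest vehicle mouse, so the groups did not overlap. The rise was 1.52-fold, with a log2 fold change of 0.61 ± 0.14 (SE, n = 4 per group, 95% interval 0.31 to 0.90, edgeR, adjusted p = 0.0208). This call was lost in edgeR without vehicle replicate 2 (log2 fold change 0.56, adjusted p = 0.0823), vehicle replicate 4, the library with the muscle markers (0.57, 0.0634) or ISOGK replicate 2 (0.59, 0.0566), and with library size as the only scaling (0.47, 0.0552). Over all alternatives the log2 fold change lay between 0.47 and 0.70 and the adjusted p between 0.000952 and 0.0823. In whole liver, a change in the number of cells that express a gene and a change in its RNA per cell cannot be told apart, here or for the genes that follow.

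Ugt2b38, the closest copy of Ugt2b5, had 51.4, 38.5, 51.1 and 46.0 CPM under vehicle and 89.3, 72.5, 68.1 and 68.9 CPM under ISOGK. Every ISOGK mouse was again above every vehicle mouse, with ISOGK replicate 1 the highest for both genes. Ugt2b38 rose 1.60-fold (log2 fold change 0.68 ± 0.12 SE, 95% interval 0.41 to 0.94, edgeR, adjusted p = 0.00651). In single mice it stood at 13.3% to 15.4% of the Ugt2b5 CPM under vehicle and 14.1% to 17.7% under ISOGK, ranges that overlap.

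Ugt2b37 was scarce, with 2, 7, 7 and 10 counts in vehicle libraries 1 to 4 and 38, 14, 23 and 20 counts in ISOGK libraries 1 to 4. On the CPM scale this was 0.100, 0.277, 0.273 and 0.447 under vehicle and 1.86, 0.739, 1.30 and 1.05 under ISOGK. The groups did not overlap, but the counts are few. The highest vehicle library had an exact 95% Poisson interval of 0.214 to 0.821 CPM and the lowest ISOGK library one of 0.404 to 1.24 CPM, so these intervals overlapped. Such intervals cover counting error only, since reads without molecular identifiers are not independent molecules. As a description, since the ISOGK libraries alone brought the gene past the filter, the fitted difference of Ugt2b37 was 4.40-fold (log2 fold change 2.14 ± 0.42 SE, 95% interval 1.22 to 3.06, edgeR, adjusted p = 0.0114). It had no value under a filter of at least 10 counts in every library, since vehicle libraries 1 to 3 fell short of it. Without vehicle replicate 4 the log2 fold changes were 2.44 for Ugt2b37, 0.67 for Ugt2b38 and 0.74 for Ugt2b35, and these 3 genes passed.

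Given the shared sequence, the scarce copy was also set against its abundant relatives. Ugt2b37 stood at 0.0292% to 0.149% of the Ugt2b5 CPM under vehicle and at 0.144% to 0.337% under ISOGK. These ranges overlapped through vehicle replicate 4 alone, and without it the vehicle mice reached 0.0959% at most, below every ISOGK mouse. Relative to Ugt2b38 it stood at 0.195% to 0.970% and at 1.02% to 2.09%, without overlap. Since the ISOGK libraries alone brought Ugt2b37 past the filter, higher ratios under ISOGK were to be expected, and all these ranges are a description. How far reads of the abundant copies entered the Ugt2b37 counts was not tested. With the 3 copies summed to 1 row before the fit, an alternative chosen after seeing the data, the log2 fold change was 0.62 ± 0.13 (SE, 95% interval 0.33 to 0.91, edgeR, adjusted p = 0.0173).

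Ugt2b35, which shares no stretch of 50 bases with another member, had 65.8, 79.2, 70.5 and 65.0 CPM under vehicle and 127, 142, 108 and 103 CPM under ISOGK. ISOGK replicate 2 was the highest and all ISOGK mice were above all vehicle mice. The gene rose 1.71-fold (log2 fold change 0.78 ± 0.12 SE, 95% interval 0.52 to 1.03, edgeR, adjusted p = 0.00288), and it passed the threshold in each of the 8 fits that left out 1 mouse. Of its stretches of 50 bases, 0.725% occur in genes outside the family.

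Ugt2b36, the next gene on the chromosome after Ugt2b35, had 357, 373, 347 and 339 CPM under vehicle and 389.5, 351, 282 and 318 CPM under ISOGK. The ISOGK mice lay on both sides of the vehicle mice. Its log2 fold change was -0.08 ± 0.11 (SE, 95% interval -0.32 to 0.16, edgeR, adjusted p = 0.702), an interval that ends below the estimates for Ugt2b5, Ugt2b38 and Ugt2b35. The ratio of Ugt2b35 to Ugt2b36 CPM was 0.184, 0.212, 0.203 and 0.192 in the vehicle mice and 0.326, 0.406, 0.382 and 0.325 in the ISOGK mice. The ratio was higher in every ISOGK mouse than in every vehicle mouse, and no test of the difference between members' fold changes was made.

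Ugt2b1 varied most among the abundant members under vehicle, with 403, 312, 252 and 299 CPM, and had 485, 420.2, 303 and 341 CPM under ISOGK. The groups overlapped, and the log2 fold change of 0.29 ± 0.17 did not pass (95% interval -0.08 to 0.66, edgeR, adjusted p = 0.322). Ugt2b34 had 253, 235, 277 and 223 CPM under vehicle and 261, 236, 229 and 172 CPM under ISOGK, with ISOGK replicate 4 the lowest. These groups overlapped too (log2 fold change -0.14 ± 0.13 SE, 95% interval -0.42 to 0.14, edgeR, adjusted p = 0.556).

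Ugt2a3, the most distant member in sequence, had 245, 227, 203 and 209 CPM under vehicle and 186, 201, 192 and 178 CPM under ISOGK. It was the member in which every ISOGK mouse was below every vehicle mouse, by a narrow margin between ISOGK replicate 2 and vehicle replicate 3. Groups were separated in the same direction in 7.36% of all genes tested, and in the other direction in 7.92%. The log2 fold change was -0.22 ± 0.09 (SE, 95% interval -0.43 to -0.02), with an unadjusted p of 0.0343 and an adjusted p of 0.169 in edgeR, so the difference did not pass.

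**Figure D2:**
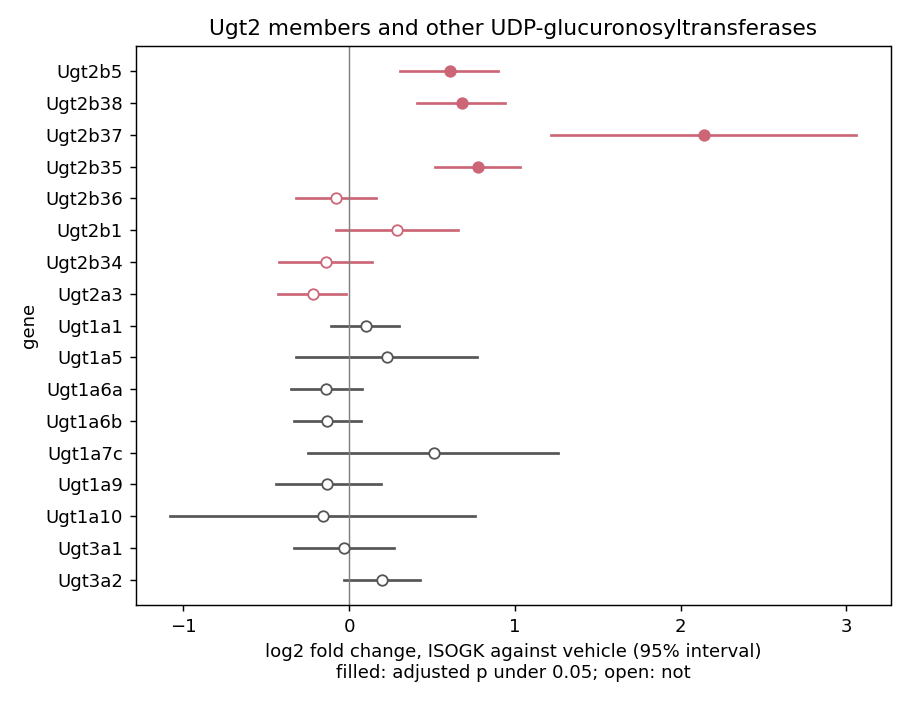
Log2 fold change, ISOGK against vehicle, of the 8 Ugt2 genes (red) and 9 other UDP-glucuronosyltransferase genes (grey), with 95% intervals from edgeR, where filled points passed an adjusted p under 0.05. Intervals of Ugt2b5, Ugt2b38, Ugt2b37 and Ugt2b35 lie above 0, from a lowest bound of 0.31 for Ugt2b5. That of Ugt2a3 lies below 0 (-0.43 to -0.02), though the gene did not pass. The 9 other UDP-glucuronosyltransferases in grey all have intervals that include 0.

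Levels of different genes were compared per kilobase of the annotated main transcript. Under vehicle, Ugt2b36 (188 ± 7.75 CPM per kb, mean ± SD, n = 4) and Ugt2b5 (174 ± 18.7) were the most abundant, and their ranges of 179 to 198 and 155 to 194 overlapped. Ugt2b1 (123 ± 24.5), Ugt2a3 (104 ± 8.88) and Ugt2b34 (80.9 ± 7.69) followed. Ugt2b1 reached up to 157 and so overlapped Ugt2b5. The ranges of Ugt2b1 and Ugt2a3 overlapped, at 98.1 to 157 and 95.9 to 116, whereas Ugt2b34 ended at 90.7, below Ugt2a3. Ugt2b38 (24.7 ± 3.19) and Ugt2b35 (20.9 ± 1.94) were lower and overlapped each other, and Ugt2b37 was last at 0.145 ± 0.0746 CPM per kb.

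Under ISOGK the order was the same except that Ugt2b5 (265 ± 49.2 CPM per kb) took the first place from Ugt2b36 (177 ± 24.4). The ISOGK range of Ugt2b5, 207 to 326, did not overlap the 149 to 206 of Ugt2b36. Ugt2b1 (151 ± 31.6) overlapped Ugt2b36. Ugt2a3 (89.4 ± 4.51) overlapped Ugt2b34 (73.5 ± 12.3), and Ugt2b38 (39.5 ± 5.24) overlapped Ugt2b35 (35.7 ± 5.39). Ugt2b37 stayed the lowest member, at 0.654 ± 0.252 CPM per kb.

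The summed CPM of the 8 genes was 1719, 1554, 1562 and 1481 in vehicle mice 1 to 4 and 2145, 1936, 1568 and 1651 in ISOGK mice 1 to 4. These sums overlapped, with ISOGK replicates 3 and 4 inside the vehicle range, and the ratio of means was 1.16 (1.06 to 1.21 over the alternative scalings and with 1 mouse left out). The 3 close copies together had 327 to 413 CPM under vehicle and 455 to 696 under ISOGK, without overlap, and the other 5 genes had 1135 to 1323 and 1112 to 1449 CPM, with overlap.

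While the sums overlapped, the shares of most members in the sum did not. Ugt2b5 made up 20.5 ± 1.90% (SD, n = 4) of the summed CPM under vehicle and 26.9 ± 1.79% under ISOGK, and Ugt2b35 made up 4.45 ± 0.520% and 6.60 ± 0.635%. Ugt2b36 went the other way, from 22.5 ± 1.34% to 18.4 ± 0.587%, as did Ugt2a3, from 14.0 ± 0.701% to 10.5 ± 1.46%, and Ugt2b34, from 15.6 ± 1.39% to 12.3 ± 1.72%. The shares of these 5 genes, and those of Ugt2b38 and Ugt2b37, did not overlap between the groups, whereas the share of Ugt2b1 did (20.0 ± 2.99% and 21.1 ± 1.41%). For Ugt2b37 this is a description, since the ISOGK libraries alone let the gene in. Shares sum to a fixed total, so a larger share of some members lowers that of the rest without any fall in their own CPM, and no test was made on them.

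**Figure D3:**
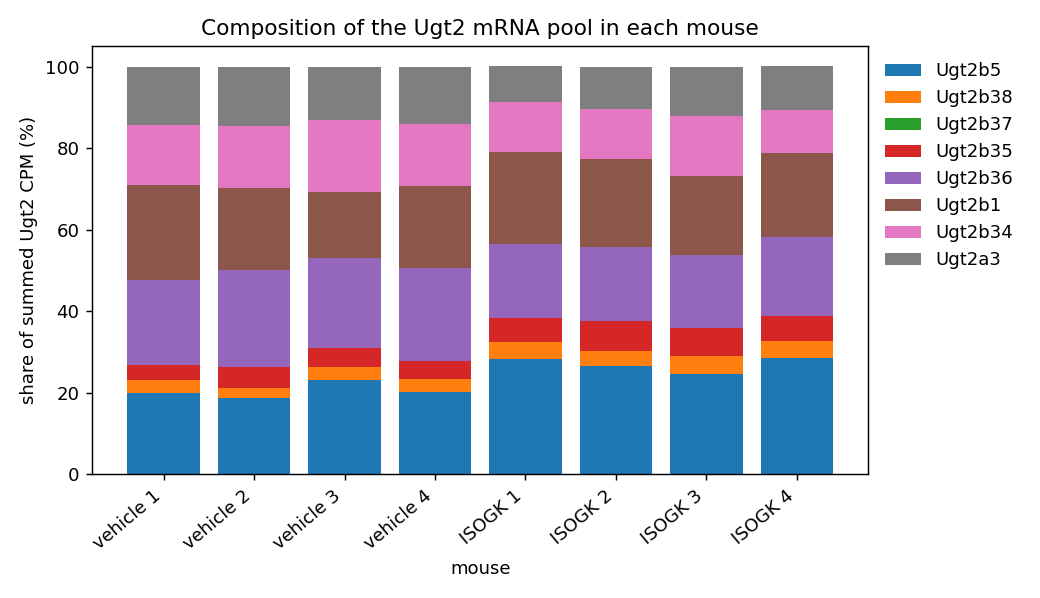
Share (%) of each Ugt2 gene in the summed Ugt2 CPM of every mouse, 4 vehicle and 4 ISOGK. The Ugt2b5 segment takes 18.6% to 23.1% in vehicle mice and 24.6% to 28.4% in ISOGK mice, and Ugt2b37, under 0.1%, is too small to see.

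For each member that passed, the 3 tested genes outside the family with the most similar pattern were sought, as the smallest root mean square (RMS) difference of mean-centred log2 CPM over the 8 mice among 12299 genes. For Ugt2b5 these were Eci1 (RMS 0.0892), Acaa1a (0.105) and Mettl27 (0.131), the first and second being enzymes of fatty acid beta-oxidation. For Ugt2b38 they were the fatty aldehyde dehydrogenase gene Aldh3a2 (0.0903), Eci1 again (0.104) and Hadhb (0.118), a subunit of the mitochondrial trifunctional protein. Ugt2b5 and Ugt2b38 were at an RMS difference of 0.111 from each other, at rank 3 for both among all genes.

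The genes nearest to Ugt2b35 were Rogdi (RMS 0.116), the epoxide hydrolase gene Ephx2 (0.131) and Entpd5 (0.131). The nearest member to it was Ugt2b5 at 0.216, only at rank 101 of all genes. For Ugt2b37 the nearest were Itga2 (0.371), Il18r1 (0.465) and Ntf3 (0.481), all with a vehicle mean of no more than 0.505 CPM. Il18r1 also met the filter's minimum in ISOGK libraries alone. Because the members compared had passed the test, genes like them had to differ between the groups as well, and all 11 genes named here were higher under ISOGK at an adjusted p under 0.05 in edgeR. With 1 mouse left out, Mettl27 (adjusted p up to 0.0988) and Il18r1 (up to 0.120) passed in 2 of 8 fits and Acaa1a (up to 0.0842) in 5, and the other 8 genes passed in all 8.

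Of the other UDP-glucuronosyltransferase genes, none of the 9 tested was called higher or lower in edgeR, against 4.11% and 3.44% of all genes. A count of 0 of 9 is near those shares, and its difference from the Ugt2 count was not tested. None was called in DESeq2 or limma-voom, or had an unadjusted p under 0.05 in any of these tools, and their median log2 fold change was -0.03. The same shares of all genes apply to edgeR's counts in the lists that follow. At an unadjusted p under 0.05, edgeR had 12.5% of all genes higher and 11.6% lower. Over all genes, DESeq2 called 744 of 12680 higher and 661 lower, and limma-voom called 461 and 411 of 12307. From here on, a pair of values in parentheses is a gene's log2 fold change and edgeR's adjusted p. Ugt1a6a (-0.14, 0.426), Ugt1a7c (0.51, 0.404) and Ugt3a2 (0.20, 0.262) had the smallest adjusted p. The Ugt1a genes share their last exons, so their separate counts are uncertain.

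Of 9 genes for the supply of UDP-glucuronic acid and the clearance of UDP, 1 rose and 1 fell, with a median of 0.12. Entpd5, a nucleotidase of the endoplasmic reticulum that hydrolyses UDP released by glycosyl transfer, had 152, 158, 156 and 173 CPM under vehicle and 255, 302, 261 and 229.7 CPM under ISOGK. The groups did not overlap, and Entpd5 rose (log2 fold change 0.72 ± 0.10 SE, edgeR, adjusted p = 0.00214). Ugp2, which makes the UDP-glucose from which UDP-glucuronic acid is formed, had 365, 338, 323 and 264 CPM under vehicle and 216, 174, 202 and 131 CPM under ISOGK. All ISOGK mice were below all vehicle mice, and Ugp2 fell (log2 fold change -0.83 ± 0.15 SE, edgeR, adjusted p = 0.00805). Next by adjusted p was Pgm1, which did not pass (0.29, 0.111).

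Among 7 genes for the hydrolysis of glucuronides and the use of glucuronate, 2 fell and 0 rose in edgeR, DESeq2 and limma-voom alike, and 0 were higher at an unadjusted p under 0.05, with a median of -0.14. They were Rgn (-0.40, 0.0428), whose product acts in ascorbate synthesis, and the xylulokinase gene Xylb (-0.38, 0.0343), and Gulo, of the same synthesis, did not pass (-0.22, 0.180). With 1 mouse left out, Rgn passed in 1 of 8 fits (adjusted p up to 0.124) and Xylb in 2 (up to 0.106).

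Sulfotransferases serve a parallel route of conjugation. Of 11 tested genes for them and for their sulfate donor, 0 were called in edgeR, DESeq2 or limma-voom, with a median of -0.26. In edgeR, 1 was higher and 1 lower at an unadjusted p under 0.05. The smallest adjusted p belonged to Sult1c2 (-0.79, 0.0815), Slc35b3 (0.39, 0.141) and Sult1d1 (-0.54, 0.277). Of 7 transporters that export conjugates, Abcc6 fell (-0.57, 0.0230) and passed in 5 of 8 fits with 1 mouse left out (up to 0.0676), while Abcc5 (-0.40, 0.139) and Abcg2 (0.34, 0.146) did not pass, and the median was -0.18.

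Of 21 tested genes for receptors and factors known to control hepatic UDP-glucuronosyltransferases, 1 rose and 1 fell, with a median of 0.06. Nr1i3, the gene of the xenobiotic receptor CAR, rose (0.45, 0.0415) but passed in 2 of 8 fits with 1 mouse left out (adjusted p up to 0.125) and not with library size as the scaling (0.153). Ghr, the growth hormone receptor gene, fell (-0.45, 0.0181) and passed in 5 of 8 such fits (up to 0.0676). Cebpa did not pass in edgeR (-0.49, 0.0679). It passed in DESeq2 (adjusted p = 0.0217) and with library size scaling (0.0337), and reached 0.162 at most over all alternatives.

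Index genes of those receptors were read beside the family as a description of the same livers, and their relation to the Ugt2 changes was not tested. All 6 index genes examined for PPAR alpha, the receptor for fatty acids, rose, with a median of 2.07. They ranged from Acot1 (1.29, 0.00390) and Vnn1 (1.56, 0.0101) to Cyp4a10 (2.02, 6.10e-05), Cyp4a14 (2.12, 1.02e-05), Pdk4 (2.16, 0.00547) and Ehhadh (2.57, 4.65e-07). Of the 7 index genes of CAR and PXR, receptors for foreign compounds, 4 fell and 0 rose, with a median of -0.71 and 0 higher at an unadjusted p under 0.05. They were Cyp3a11 (-0.71, 0.0360), Cyp2c29 (-0.68, 0.00900), Cyp2c55 (-1.73, 0.0376) and Gstm3 (-2.28, 0.00178). With 1 mouse left out, Cyp3a11 (up to 0.110) and Cyp2c55 (up to 0.130) passed in 2 of 8 fits. Cyp2c55 met the filter's minimum in the vehicle libraries alone, so it had to differ, and the count of 4 that includes it is a description. Ces2a (-0.17, 0.340), Gsta1 (-0.28, 0.680) and Cyp2b10 (-1.96, 0.0631) did not pass. Cyp2b10 passed in DESeq2 (adjusted p = 0.0164), with library size scaling (0.0410), without the robust option (0.0326), and without vehicle replicate 3 (0.0363) or ISOGK replicate 3 (0.0420), and over all alternatives it reached 0.233 at most.

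Of the 4 index genes of the aryl hydrocarbon receptor, Cyp1a2 fell (-0.48, 0.0101), and Cyp1a1 (-0.53, 0.506), Cyp1b1 (0.25, 0.761) and Tiparp (-0.40, 0.289) did not pass. Of the 6 of NRF2, the factor of the antioxidant response, Srxn1 rose (1.01, 0.000121). Nqo1 (0.09, 0.799), Gclc (0.27, 0.173), Gclm (0.18, 0.242), Txnrd1 (0.13, 0.346) and Hmox1 (-0.09, 0.725) did not pass. Of 2 tested for the bile acid receptor FXR, the bile salt pump gene Abcb11 fell (-1.07, 0.00183) and Nr0b2 did not pass (-0.55, 0.587).

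**Figure D4:**
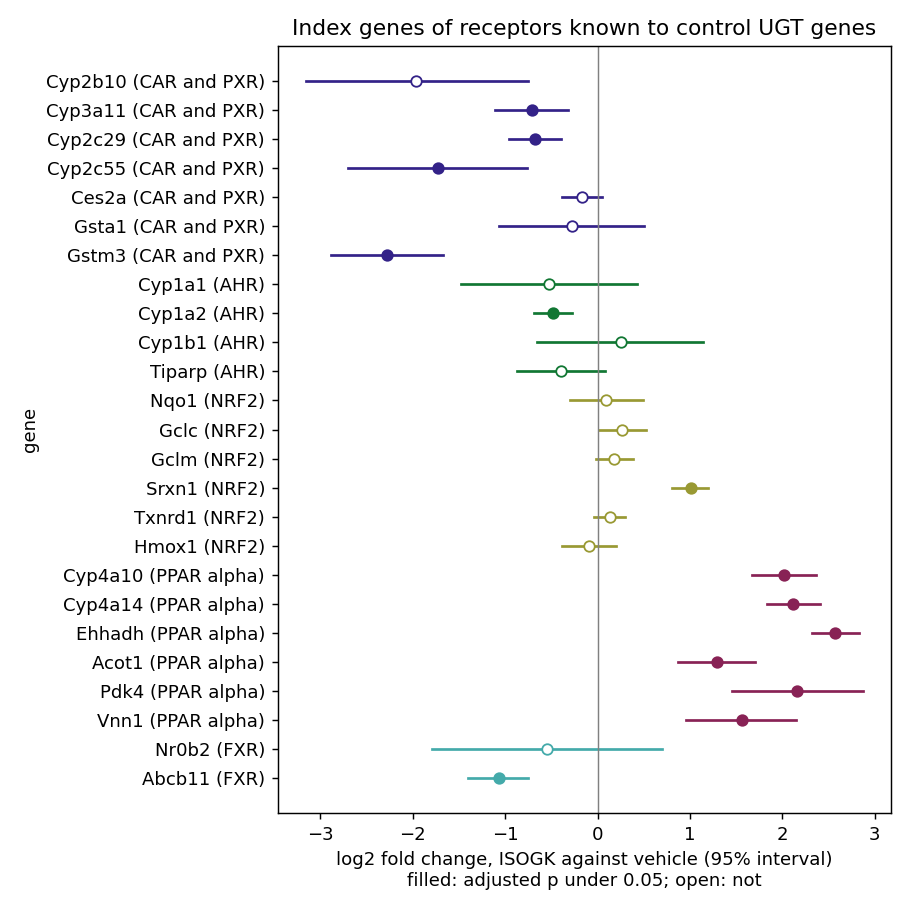
Log2 fold change with 95% interval (edgeR) of 25 index genes, coloured by receptor, where filled points passed an adjusted p under 0.05. The 6 PPAR alpha genes lie between 1.29 and 2.57, and the 7 CAR and PXR genes all lie below 0, from -0.17 to -2.28.

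Sex-biased liver genes were counted because several Ugt2b genes are known to differ between male and female mice. Of 11 tested male-biased genes 2 rose and 0 fell in edgeR, with a median of 0.57. At an unadjusted p under 0.05, 8 were higher and 2 lower (12.5% and 11.6% of all genes). Those that rose were Cyp2d9 (0.53, 0.0494), which passed in 1 of 8 fits with 1 mouse left out (adjusted p up to 0.135), and Gstp1 (0.57, 0.0316), which passed in 2 (up to 0.0911). The lower ones at an unadjusted p were Hsd3b5 (-2.04, 0.0708), with every ISOGK mouse below every vehicle mouse, and Slco1a1 (-0.79, 0.110). In DESeq2 the adjusted p was 0.00503 for Hsd3b5 and 0.0119 for Slco1a1, and in limma-voom 0.00698 and 0.0637. Of 4 tested female-biased genes, Cyp17a1 rose (1.85, 0.000689) and Cyp2b9 fell (-4.07, 0.00322), with a median of -0.63. DESeq2 called 7 male-biased genes higher and 2 lower, limma-voom called 3 and 1, and both tools called 1 female-biased gene higher and 1 lower. Over all genes DESeq2 called 744 of 12680 higher and 661 lower, and limma-voom 461 and 411 of 12307.

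Markers of other cell types were read beside the Ugt2 values, and the part of those cells in the Ugt2 values was not tested. Of 5 cholangiocyte markers, led by Spp1, 1 was higher in edgeR, Sox9 (0.51, 0.0494), and it passed in none of the 8 fits with 1 mouse left out (adjusted p 0.0745 to 0.140). DESeq2 called 2 of the 5 higher and limma-voom 1. At an unadjusted p under 0.05 edgeR had 4 of 5 higher and 0 lower, against 12.5% and 11.6% of all genes. DESeq2 also had 4 higher and 0 lower at this level, and limma-voom 3 and 0. Their summed level was 31.5, 29.4, 27.5 and 34.8 CPM in the vehicle mice and 46.6, 69.1, 48.9 and 28.2 CPM in the ISOGK mice, with ISOGK replicate 4 inside the vehicle range. Of 6 macrophage markers, led by Clec4f, 1 was lower, Cd68 (-0.57, 0.00900), and it passed in all 8 such fits. Their summed level was 650.4, 544, 605 and 484 CPM in the vehicle mice and 524, 406, 493 and 339 CPM in the ISOGK mice, so the groups overlapped. No marker of these lists was at 0 in any library.

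Only 1 of 5 kidney markers was in the table, Lrp2, and it was higher (2.63, 0.00389), at 0.201, 0.119, 0.389 and 0.223 CPM under vehicle and 1.03, 1.79, 2.15 and 0.995 CPM under ISOGK. It was scarce in all mice and met the filter's minimum in the ISOGK libraries alone, so it had to differ. Its call, kept in all 8 fits with 1 mouse left out, is a description, and nothing is read from it. No tested marker of hepatocytes, stellate, endothelial or red blood cells, lymphocytes, adipocytes, exocrine pancreas or small intestine was called in edgeR. At an unadjusted p under 0.05, edgeR had 1 hepatocyte and 2 red blood cell markers higher and 1 stellate marker lower, and DESeq2 called 1 hepatocyte marker higher and 1 stellate marker lower. The lists held no markers of mesothelium or neutrophils. Of genes known from those cells, Msln (3.14, 0.0329), Upk3b (2.70, 0.0405), Ltf (2.92, 0.0383) and S100a9 (1.31, 0.0149) were higher. They were scarce, with vehicle means of 0.577, 0.709, 0.318 and 2.84 CPM in that order. Whether the ISOGK libraries alone brought any of them past the filter was not examined. S100a8 (1.04, 0.0815) did not pass. These values are a description of genes picked after the data were seen, and their relation to the Ugt2 changes was not tested.

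**Figure D5:**
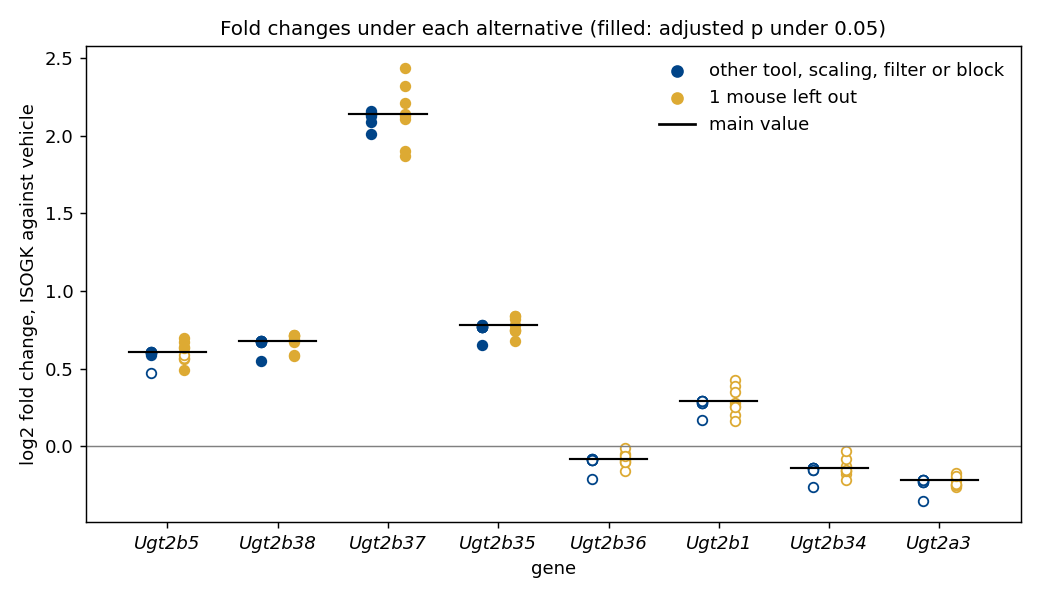
Log2 fold change of each Ugt2 gene under every other tool, scaling, filter or block (blue) and with 1 mouse left out (yellow), with the main value as a black line and filled points for an adjusted p under 0.05. No gene changes sign. Ugt2b5 loses its call in 4 of these fits and Ugt2b35 and Ugt2b38 in none. Ugt2b37, let in by the ISOGK libraries alone, is shown as a description. The fit with the close copies summed is not drawn.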

How the data were processed

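Liver RNA was measured in 4 vehicle and 4 ISOGK mice. The authors aligned single-end reads with HISAT2 2.0.5 to the mouse genome (mm10 per the labels), and the deposited table holds raw gene counts, in whole numbers, made with StringTie 1.3.3b. Strand use and annotation release are not given in the sources used here. Columns named DMSO were taken as vehicle.

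Genes with a count of at least 10 in enough libraries (edgeR's filterByExpr, minimum total 15) were kept, 12307 of 16540. Counts were scaled with TMM and tested with the robust quasi-likelihood test of edgeR 4.0.16 (R 4.3.3), adjusted by Benjamini-Hochberg over all genes tested. The log2 CPM used a prior count of 2. Alternatives were DESeq2 1.42.0, limma-voom (limma 3.58.1), other scalings and filters, a replicate block, and each mouse left out. The methods were tested on simulated data.

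Members and lists were chosen with earlier results of these data known. Named were all members, the 3 genes with the smallest adjusted p in each of 8 lists, any list gene that passed, the index genes examined, and the 3 genes most like each called member. The cell type markers Alb, Sox9, Spp1, Cd68, Clec4f, Lrp2, Myh4 and Acta1 were named after their values were seen. So were Hsd3b5, Slco1a1, Msln, Upk3b, Ltf, S100a9 and S100a8. The study names paired tests for comparing groups, but the sources used here do not say which mice form pairs, so the main test used no pairing and the replicate block was an alternative. Of the 16540 symbols, 16211 matched GENCODE M21. No 2 libraries of a group agreed within sampling noise (chi-square of 17.1 to 93.4 per gene).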

Additional observations from a re-analysis of the deposited data

Results flagged for a closer look

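In 174 groups of 4 values examined for a sample far from the others, 11 stood out, where chance alone gives about 1 in 20. Within the family, Ugt2b34 made up 17.7% of the Ugt2 CPM in vehicle replicate 3, against 14.7% to 15.1% in the other vehicle mice, and Ugt2b36 made up 19.3% in ISOGK replicate 4, against 18.0% to 18.2% in the other ISOGK mice. The CPM of no Ugt2 gene stood out in this way.

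Among the genes nearest to called members, Rogdi was high in vehicle replicate 2 (9.26 CPM, others 7.98 to 8.10) and Acaa1a was low there (87.1 CPM, others 107 to 108). ISOGK replicate 2 was low for Itga2 (1.00 CPM, others 2.09 to 2.31) and Ntf3 (0.950 CPM, others 1.81 to 1.99). Cyp2c55 was low in ISOGK replicate 1 (0.0981 CPM, others 0.419 to 0.475), and Cyp17a1 was high in ISOGK replicate 3 (84.2 CPM, others 45.5 to 52.0).

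Summed skeletal muscle markers were high in vehicle replicate 4 (82.4 CPM, others 0 to 0.623) and low in ISOGK replicate 3 (0.226 CPM, others 0.528 to 0.589). Summed red blood cell markers were low in ISOGK replicate 3 (69.1 CPM, others 151 to 153).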

How the results depend on the processing

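The count of 4 higher members lay between 3 and 4, and that of 0 lower members was 0, under all alternatives. Over the 130 alternative values of the 8 members, where the sum of the close copies stands for each of the 3, no log2 fold change changed sign. The call of Ugt2b5 was lost with library size alone (log2 fold change 0.47, adjusted p = 0.0552) and in 3 of the 8 fits that left out 1 mouse, and over those 8 its adjusted p lay between 0.00784 and 0.0823. Ugt2b35 and Ugt2b38 kept their calls in all alternatives. Nothing is read from the calls of Ugt2b37, which passed the filter through the ISOGK libraries alone. Summing the close copies, which was chosen after seeing the data, left 6 values to test, of which 2 were higher, the sum and Ugt2b35, and 0 lower. The sum is counted for each of its 3 members in the 4 above. The same by protein identity was planned and not run, since proteins were not used here.

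Library size alone moved the median log2 fold change of all genes by -0.13. Relative to that shift Ugt2b5 stood at 0.61 and Ugt2a3 at -0.22. Before the shift is taken off, Ugt2a3 stood at -0.35 with this scaling (adjusted p = 0.0505). Under this scaling 262 genes were higher and 804 lower (24.6% of calls higher), against 506 and 423 (54.5%) with TMM. DESeq2 called 744 higher and 661 lower. With 1 mouse left out, the genes called higher ranged from 219 to 712 and those called lower from 160 to 523, and members called higher ranged from 3 to 4 and lower from 0 to 0. The causes were not tested.

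Same-numbered mice did not deviate together (4 correlations across genes of -0.01 to 0.08, where 1 of 4 vehicle mice correlated best with its own number). So few correlations cannot tell whether same-numbered mice were paired or handled together. With the number as a replicate block, 4 members were higher and 0 lower, and 411 genes were higher and 416 lower.

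Among 57 other named genes, 65 of their values without 1 mouse and 16 under other alternatives lost a call, 4 and 6 gained one, and 5 of 906 changed sign, none of them called. Among the Ugt2 members, the depth limits Ugt2b37 most, with no more than 10 counts in a vehicle library.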
